A study of Mus musculus with 10 samples.

Results

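Gm16045 and 7 long noncoding RNAs known from work on blood vessels and the heart, Malat1, Neat1, Meg3, H19, Gas5, Tug1 and Kcnq1ot1, were followed in cardiac endothelial cells of mice fed a control or a ketogenic diet. These 8 genes were taken by name from the 46983 genes of the deposited count table, and all 8 were present and had enough reads to be among the 15949 genes tested. Gm16045 had been picked because its counts were lower on the ketogenic diet and did not overlap between the diets, so its difference is described here without a test. The other 7 were picked by name for their known roles and were tested.

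Male wild-type C57BL/6J mice, 8 weeks old at the start, ate either a control diet with 11.6% of its energy from fat or a ketogenic diet with 89.5% of its energy from fat for 14 days, and there were 5 mice on each diet. The study describes the mice of the diets as littermates. Food and water were freely available, and no mouse carried a transgene or received another agent. CD31+ cells were pulled from the digested heart of each mouse with antibody-coated magnetic beads, a step that enriches endothelial cells and does not remove every other cell. Libraries were made for each mouse from 10 ng of RNA, labelled as polyadenylated, with the SMART-Seq v4 kit, which copies full-length cDNA and does not record the strand, and were sequenced as single reads of 50 bases.

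The library totals ranged from 10885154 to 12710861 counted reads. The 8 endothelial markers examined, among them Pecam1 (which encodes CD31) and Cdh5, summed to 4113 to 4465 CPM (counts per 1000000 reads) on the control diet and 3965 to 4497 on the ketogenic diet. Several of them, such as Pecam1 with 6770 to 7020 reads, varied less between mice than the library totals. Markers of cardiomyocytes, fibroblasts, mural cells, macrophages, lymphocytes and blood were also present in every mouse. Fewer cells of a type and less RNA per cell cannot be told apart in such bulk samples. CPM here are scaled to edgeR's TMM library size, errors are SD over the 5 mice of a diet, and fold changes are ketogenic over control on the log2 scale with their standard error (SE).

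Long noncoding RNAs are transcripts that are not translated into a known protein. Malat1 and Neat1 stay in the nucleus, where Malat1 gathers in splicing speckles and Neat1 builds the paraspeckle. H19, Meg3 and Kcnq1ot1 are imprinted, which means that the copy from one parent is the active one, and Kcnq1ot1 silences neighbouring genes on its own chromosome. Gas5 carries small nucleolar RNAs (snoRNAs) in its introns, and Tug1 is a broadly expressed RNA of nucleus and cytoplasm. In endothelial cells, Malat1, Meg3, H19 and Gas5 have all been tied to proliferation or vessel growth. No function of Gm16045 is known from its annotation.

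The sequences below show which transcript the reads of Gm16045 were assigned to, which microRNAs lie inside 2 of the RNAs, and where an annotated start of Gas5 lies. The first line holds the first 100 bases of the annotated Gm16045 transcript and the second its single exon junction (transcript bases 2224 to 2303, with exon 2 in capitals), both from GENCODE release M21. The next 4 lines hold the mature microRNAs of H19 (miR-675) and Meg3 (miR-770) with the seed, bases 2 to 8, in capitals. The last line holds 70 bases around an annotated Gas5 start (chr1:161035136-161035205, plus strand), with the unbroken run of C and T that begins at the start base in capitals. It is not the only Gas5 start listed, and the run at any other is not reported here. The microRNAs and the Gas5 start are from RefSeq on GRCm38.p6, and the GENCODE gene begins further upstream, at 161034422.
Gm16045 transcript start: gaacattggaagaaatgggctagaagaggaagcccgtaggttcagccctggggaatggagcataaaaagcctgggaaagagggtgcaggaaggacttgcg
Gm16045 exon junction: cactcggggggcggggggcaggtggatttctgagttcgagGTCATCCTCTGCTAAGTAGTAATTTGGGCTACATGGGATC
mmu-miR-675-3p: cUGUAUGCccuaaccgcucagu
mmu-miR-675-5p: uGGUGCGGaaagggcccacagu
mmu-miR-770-3p: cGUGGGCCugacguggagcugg
mmu-miR-770-5p: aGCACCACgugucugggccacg
Gas5 start: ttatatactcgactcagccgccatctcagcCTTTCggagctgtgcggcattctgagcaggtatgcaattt

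The 4 microRNA arms share no seed with each other. The run of C and T at this Gas5 start is 5 letters long, and 1457 of 32851 promoters in the same table (4.44%), read on the gene's own strand, start with a run at least as long. A run of this kind at the start base is the mark by which messenger RNAs of ribosomal proteins are known, and its match here is a description of the letters only.

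Gm16045 (ENSMUSG00000086050.1) lies on chromosome 11 from 117257649 to 117263437 on the minus strand of GRCm38 and is annotated as an antisense gene with 1 transcript of 2 exons. Exon 1 has 2263 bases (117261175 to 117263437) and exon 2 has 706 bases (117257649 to 117258354). The whole gene sits inside one intron of Sept9, which runs on the plus strand from 117199661 to 117362325 and encodes a septin, a filament protein of the cytoskeleton. That intron spans 33526 bases (117232720 to 117266245), and 24929 and 2808 bases separate Gm16045 from the Sept9 exons on either side. No base of a Sept9 exon overlaps Gm16045. Because the library kit does not record the strand, reads of Gm16045 and reads of unspliced Sept9 RNA from this intron cannot be told apart.

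**Figure D1:**
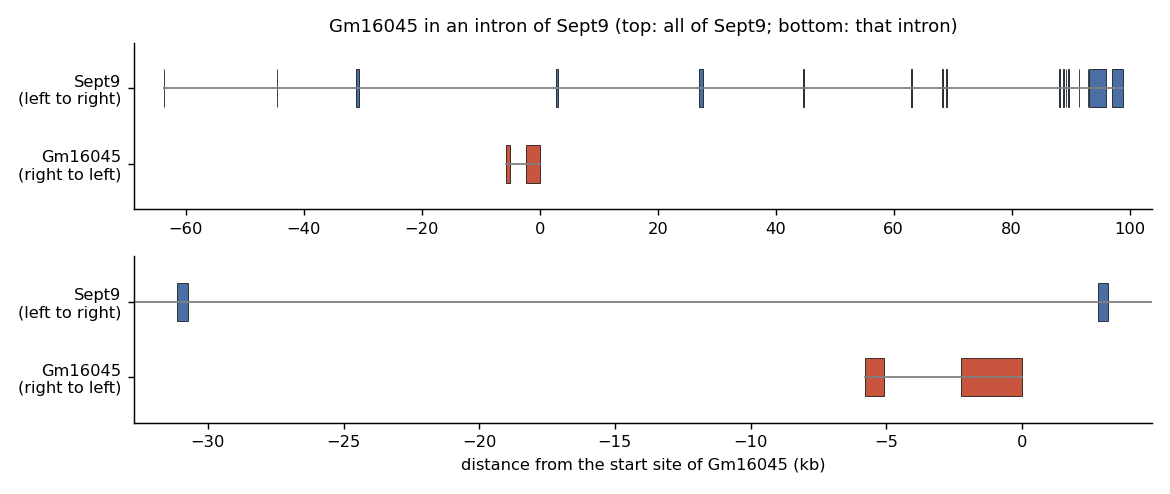
Map of Gm16045 (red, read right to left) and Sept9 (blue, read left to right), with exons as boxes and introns as lines, drawn to scale against the distance in kilobases from the Gm16045 start. The upper panel shows all of Sept9 and the lower panel the 33526-base intron that holds both Gm16045 exons, which touch no Sept9 exon.

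Gm16045 was a low-level RNA and was lower on the ketogenic diet in every mouse. On the control diet it had 3.81, 5.57, 4.01, 3.17 and 3.98 CPM in mice 1 to 5, which stand for 41, 68, 45, 35 and 46 reads. On the ketogenic diet it had 1.87, 1.62, 1.69, 1.34 and 1.72 CPM, which stand for 22, 18, 20, 16 and 22 reads. The lowest control mouse (mouse 4) stood above the highest ketogenic mouse (mouse 1), and control mouse 2 was the highest of all. The means were 4.11 ± 0.888 and 1.65 ± 0.195 CPM (SD, n = 5 each), a ratio of 0.401 and a log2 fold change of −1.31 (SE 0.194). These values are what the gene was chosen for, and with 16 to 68 reads in a mouse they rest on few molecules.

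Over all tested genes, 4.34% had CPM that did not overlap between the diets, 1.94% with the ketogenic mice lower.

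Sept9, the gene around Gm16045, was measured at 165 ± 8.66 CPM on the control diet and 161 ± 5.56 CPM on the ketogenic diet, a log2 fold change of −0.04 (SE 0.0431, edgeR adjusted p = 0.672). The nearest tested gene outside Sept9 at lower coordinates was Sec14l1, 98381 bases away, with a log2 fold change of −0.19 (adjusted p = 0.395 from edgeR). At higher coordinates it was 2900041M22Rik, 347810 bases away, with −0.40 (adjusted p = 0.309 from edgeR). Neither the host gene nor these neighbours passed the test.

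None of the other 7 RNAs passed an adjusted p of 0.05 in edgeR's quasi-likelihood test, which called 1.34% of all tested genes (213 genes, 129 or 0.809% higher and 84 or 0.527% lower). At an unadjusted p of 0.05, 3 of the 7 were lower (Kcnq1ot1, Gas5 and Malat1), beside 17.8% of all genes in either direction and 9.26% lower. DESeq2, the tool the study used, called 0 of the 7 and 795 of 15416 genes (5.16%), with the same number, 3, at an unadjusted p of 0.05. Of the 7, 5 had a fold change below 0 and 2 above 0, with a median log2 fold change of −0.28 beside −0.01 over all tested genes. Ketogenic mouse 2 had the highest value of its group in 5 of the 7 RNAs, though not by a gap that passed Dixon's test for an outlier. Without this mouse 3 of the 7 passed the adjusted p of 0.05, all lower (Malat1, Neat1 and Gas5), beside 3.05% of all genes in either direction and 1.70% lower in the same edgeR fit. For these 3 RNAs ketogenic mouse 2 was the only ketogenic mouse not below every control mouse, so leaving it out fixes the separation of the diets. Leaving out ketogenic mouse 3 instead gave 0 of the 7.

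**Figure D2:**
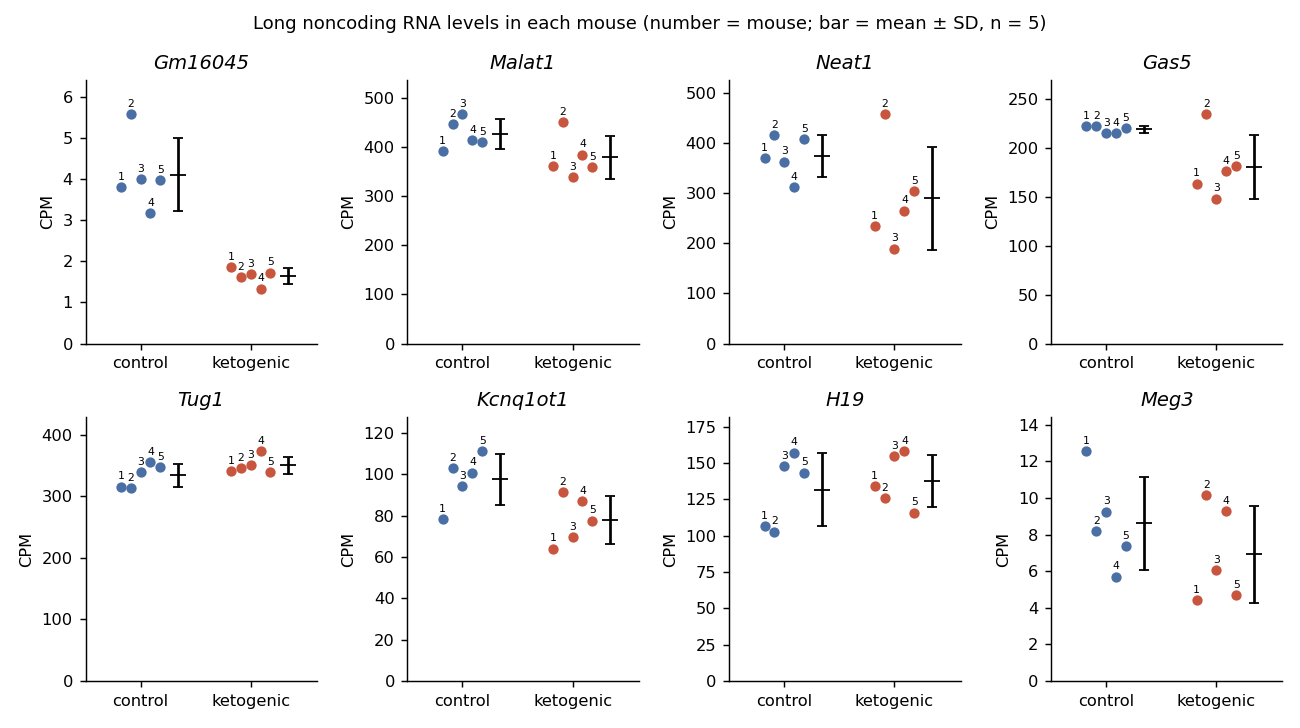
CPM of the 8 RNAs in each mouse (vertical axes start at 0), with control mice in blue, ketogenic mice in red, the mouse number above each point and the mean ± SD (n = 5) beside each group. Only Gm16045, which was chosen for this, has no overlap between the diets. Ketogenic mouse 2 is the highest of its group for Malat1, Neat1, Gas5, Kcnq1ot1 and Meg3.

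Of the nuclear RNAs, Malat1 (ENSMUSG00000092341.2, chromosome 19 from 5795690 to 5802672, minus strand, a lincRNA, that is, a long intergenic noncoding RNA) was lower in most but not all ketogenic mice. It had 392, 447, 467, 415 and 410 CPM in control mice 1 to 5 and 362, 451, 340, 385 and 359 CPM in ketogenic mice 1 to 5. Ketogenic mouse 2 stood among the highest control mice, and the other 4 ketogenic mice were below every control mouse. The means were 426 ± 30.2 and 379 ± 43.1 CPM, a log2 fold change of −0.17 (SE 0.0723, edgeR adjusted p = 0.244). Without ketogenic mouse 2 the log2 fold change was −0.24 with an edgeR adjusted p of 0.0409. Without ketogenic mouse 3, the lowest, it was −0.13 with an edgeR adjusted p of 0.459.

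Neat1 (ENSMUSG00000092274.2, chromosome 19 from 5824708 to 5845478, minus strand, a lincRNA), the scaffold of the paraspeckle, lies 22036 bases from Malat1. Its values were 371, 416, 363, 312 and 409 CPM in control mice 1 to 5 and 235, 458, 190, 266 and 304 CPM in ketogenic mice 1 to 5. Here too 4 ketogenic mice were below every control mouse, while mouse 2 was above them all. The SD on the ketogenic diet, 103 around a mean of 290 CPM, exceeded that on the control diet, 41.6 around 374 CPM. The log2 fold change was −0.37 (SE 0.188, edgeR adjusted p = 0.337), without ketogenic mouse 2 it was −0.59 with an edgeR adjusted p of 0.0327, and without ketogenic mouse 3, the lowest, it was −0.24 with an edgeR adjusted p of 0.546. The annotation does not let the counts separate the short from the long Neat1 isoform, and the library was labelled as polyadenylated RNA.

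Gas5 (ENSMUSG00000053332.13, chromosome 1 from 161034422 to 161038539, plus strand, a processed transcript), a snoRNA host known for its rise in growth-arrested cells, had the tightest control values of the 8 RNAs. They were 222, 222, 215, 215 and 220 CPM in mice 1 to 5, a coefficient of variation of 1.6%. On the ketogenic diet they were 163, 234, 148, 176 and 181 CPM, a coefficient of variation of 18.1%. Mouse 2 was above all control mice and the other 4 were below all of them. The means were 219 ± 3.50 and 181 ± 32.7 CPM, a log2 fold change of −0.28 (SE 0.0955, unadjusted p = 0.0133 and adjusted p = 0.162 from edgeR). Without ketogenic mouse 2 it was −0.39 with an edgeR adjusted p of 0.00748, and without ketogenic mouse 3, the lowest, it was −0.21 with an edgeR adjusted p of 0.289.

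Tug1 (ENSMUSG00000056579.17, chromosome 11 from 3639785 to 3649673, minus strand, annotated as antisense) had nearly the same level in every mouse. It was measured at 315, 313, 338, 356 and 347 CPM in control mice 1 to 5 and at 341, 346, 351, 373 and 340 CPM in ketogenic mice 1 to 5. The groups overlapped, and ketogenic mouse 4 was the highest. The log2 fold change was 0.07 (SE 0.0423, 95% interval −0.02 to 0.15, edgeR adjusted p = 0.436). Its exons share 483 bases with Morc2a on the other strand, and Morc2a had a log2 fold change of −0.12 (edgeR adjusted p = 0.511).

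Of the imprinted RNAs, Kcnq1ot1 (ENSMUSG00000101609.1, chromosome 7 from 143203458 to 143296549, minus strand, antisense to the potassium channel gene Kcnq1) had the smallest unadjusted p of the 7. Its values were 78.2, 103, 94.4, 101 and 111 CPM in control mice 1 to 5 and 64.0, 91.5, 69.6, 87.2 and 77.6 CPM in ketogenic mice 1 to 5. All 5 ketogenic mice were below the control mean and 3 were below every control mouse, with control mouse 1 at the ketogenic level. The means were 97.5 ± 12.4 and 78.0 ± 11.5 CPM, a log2 fold change of −0.32 (SE 0.110, unadjusted p = 0.0122 and adjusted p = 0.156 from edgeR), and without ketogenic mouse 2 it was −0.39 (edgeR adjusted p = 0.0823). Without ketogenic mouse 3 the log2 fold change of Kcnq1ot1 was −0.28 (edgeR adjusted p = 0.295). Kcnq1 itself, with 121 bases of exon in common, had 59.7 ± 3.79 and 57.1 ± 3.01 CPM, a log2 fold change of −0.07 (edgeR adjusted p = 0.597). Kcnq1 runs on the plus strand from 143106362 to 143427042 and so spans all of Kcnq1ot1. As for Gm16045 and Sept9, reads of Kcnq1ot1 and of unspliced Kcnq1 RNA cannot be told apart without the strand.

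H19 (ENSMUSG00000000031.15, chromosome 7 from 142575529 to 142578143, minus strand, a lincRNA), an abundant RNA of fetal tissue and the host of miR-675, overlapped broadly between the diets. It had 106, 103, 148, 157 and 143 CPM in control mice 1 to 5 and 134, 126, 154, 158 and 116 CPM in ketogenic mice 1 to 5. Control mice 1 and 2 were the lowest. The log2 fold change was 0.07 (SE 0.128, 95% interval −0.18 to 0.32, edgeR adjusted p = 0.824). Igf2, the growth factor gene with which H19 shares an imprinted domain, lies 72623 bases away and had 342 ± 11.1 and 326 ± 13.9 CPM, a log2 fold change of −0.07 (edgeR adjusted p = 0.32).

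Meg3 (ENSMUSG00000021268.17, chromosome 12 from 109541001 to 109571726, plus strand, a lincRNA), which has been linked to restraint of vessel growth, was low and variable. It had 12.5, 8.20, 9.26, 5.70 and 7.35 CPM in control mice 1 to 5 and 4.41, 10.2, 6.08, 9.27 and 4.70 CPM in ketogenic mice 1 to 5, on 52 to 135 reads. Control mouse 1 was the highest, and ketogenic mice 1 and 5 were the lowest. The log2 fold change was −0.32 (SE 0.269, 95% interval −0.84 to 0.21, edgeR adjusted p = 0.571) and ranged from −0.49 without ketogenic mouse 2 to −0.14 without control mouse 1, with no adjusted p under 0.05. Its neighbour Rian, a noncoding RNA of the same imprinted domain, had 18 to 43 reads in a mouse and a log2 fold change of −0.14 (edgeR adjusted p = 0.826).

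The levels of different RNAs can be set in order only per length. In CPM per kilobase of merged GENCODE exons, averaged over the 10 mice, Malat1 was at 57.7 (range over mice 48.6 to 66.9), H19 at 54.7 (41.8 to 64.2) and Gas5 at 53.1 (39.3 to 62.3). These 3 overlapped. Tug1 followed at 35.1 (32.2 to 38.3) and Neat1 at 16 (9.14 to 22.1), and their ranges did not overlap with each other or with those of the RNAs next to them in the order. The lowest levels were those of Gm16045 at 0.969 (0.450 to 1.88), Kcnq1ot1 at 0.943 (0.688 to 1.19) and Meg3 at 0.429 (0.244 to 0.693), where each range overlapped the next. By diet, Gm16045 stood above Kcnq1ot1 on the control diet (1.38 against 1.05) and below it on the ketogenic diet (0.555 against 0.838), and H19 stood below Malat1 on the control diet (53.4 against 61.0) and above it on the ketogenic diet (56.0 against 54.3). The lengths behind the deposited RPKM were mostly larger than the merged exons for genes with several transcripts (5688 against 2460 bases for H19, 11685 against 3760 for Gas5), which is why the order was not taken from them.

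A limit on the abundant RNAs comes from the counts themselves. The highest count of a gene in a mouse was 14973, and 3 of 46488 genes had more reads in a mouse than 2 per base of merged exon, the number of start positions that both strands give. Malat1 used at most 39.1% of these positions, H19 38.4%, Gas5 36%, Tug1 22.9% and Neat1 12.3%, and the other 3 RNAs at most 1.145%. For Gas5 the positions include the snoRNA stretches of its merged exons, so its value may be too low for the spliced RNA. With the counts corrected for used positions, an alternative added after the data had been seen, the log2 fold change was −0.20 for Malat1 (edgeR adjusted p = 0.252) and −0.32 for Gas5 (edgeR adjusted p = 0.167). Some genes had nearly the same count in every mouse, such as Hba-a1 (97 to 98 reads), Hbb-bs (439 to 465) and Hnrnpk (2534 to 2630). Differences between mice in such genes may be compressed, and the reason was not tested. Whether duplicate reads had been removed is not given in the sources used here.

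The microRNAs and snoRNAs inside these RNAs could not be measured. Of 30 annotated genes whose exons lie wholly inside exons of one of the 8 RNAs, all 30 had 0 reads in all mice. Among them were Mir675 in H19, Mir770 in Meg3 and the Snord47 and Snord80 snoRNAs in Gas5. The 8 that lie on the opposite strand were also at 0. Whether reads from these stretches were given to the surrounding RNA or to no gene cannot be told from the table.

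**Figure D3:**
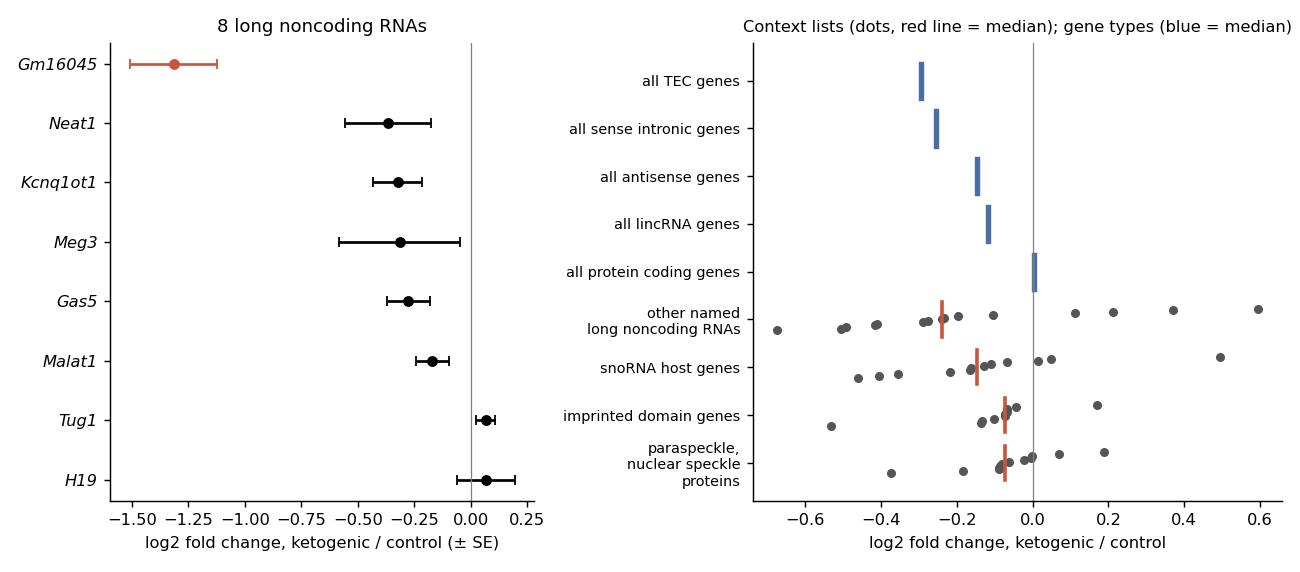
Left, log2 fold changes (ketogenic over control) of the 8 RNAs with their SE, in order of size, where Gm16045 (red) stands at −1.31 and the others between −0.37 and 0.07. Right, log2 fold changes of single genes of 4 lists (grey dots, red line at the median) and the medians of 5 gene types (blue), of which protein-coding genes lie at 0.00 and TEC genes at −0.30.

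Related genes were followed as 4 lists, and no gene of any list passed an adjusted p of 0.05 in edgeR's test, beside 1.34% of all tested genes. An unadjusted edgeR p under 0.05 was found for 8 of 15 other named long noncoding RNAs and 4 of 12 snoRNA hosts. It was found for 2 of 12 speckle and paraspeckle proteins and 0 of 10 imprinted domain genes, beside 17.8% of all genes. Of the 15 tested genes among 22 other named long noncoding RNAs, 11 had a fold change below 0 and 4 above, with a median of −0.24. Lncpint, an RNA induced by p53, did not overlap between the diets, with 14.9 ± 0.761 and 10.6 ± 1.62 CPM and a log2 fold change of −0.49 (SE 0.112, edgeR adjusted p = 0.0554). Its control mice lay between 14.0 and 16.1 CPM and its ketogenic mice between 9.20 and 13.0 CPM. Ftx, from the X inactivation centre, had a log2 fold change of −0.42 (edgeR adjusted p = 0.107), and the microRNA hosts Mir22hg and Dleu2 had −0.29 and −0.28 (edgeR adjusted p = 0.153 and 0.154).

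Of the 16 snoRNA hosts beside Gas5, 12 were tested, with 9 below 0, 3 above and a median log2 fold change of −0.15. Zfas1 had 119, 107, 106, 107 and 111 CPM in control mice 1 to 5 and 77.1, 107, 73.1, 84.2 and 87.8 CPM in ketogenic mice 1 to 5, so that ketogenic mouse 2 again stood at the control level. Its log2 fold change was −0.35 (SE 0.0893, edgeR adjusted p = 0.0721), and −0.45 without that mouse. No p-value is given for the fit without it, because leaving out the only ketogenic mouse at the control level fixes the separation of the diets. Snhg1 had −0.22 (edgeR adjusted p = 0.128), Snhg17 −0.40 (edgeR adjusted p = 0.207) and Epb41l4aos 0.50 (edgeR adjusted p = 0.136).

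All 12 proteins of paraspeckles and nuclear speckles, the bodies that Neat1 and Malat1 occupy, were tested, with 10 below 0, 2 above and a median log2 fold change of −0.07. The largest difference by its p was in Son, a core protein of speckles, at 427 ± 15.6 and 376 ± 28.7 CPM with a log2 fold change of −0.18 (SE 0.0490, edgeR adjusted p = 0.0864). The splicing factors Srsf2 and Srrm1 had log2 fold changes of −0.09 each (edgeR adjusted p = 0.314 and 0.33). Nono and Sfpq, the proteins that build paraspeckles with Neat1, had −0.02 and −0.00.

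Of 16 genes in the 3 imprinted domains, 10 were tested, with 9 below 0, 1 above and a median log2 fold change of −0.07. Cdkn1c, a brake on the cell cycle that Kcnq1ot1 silences on one chromosome, had 109 ± 8.12 and 102 ± 4.50 CPM, a log2 fold change of −0.10 (edgeR adjusted p = 0.377). Cd81 and Nap1l4 had −0.07 and −0.04 (edgeR adjusted p = 0.42 and 0.546). The 6 that were not tested, Dlk1, Rtl1, Mirg, Dio3, Ins2 and Ascl2, had at most 8 reads in any mouse.

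Medians below 0 were not limited to these lists. The median log2 fold change was 0.00 over 13236 protein-coding genes, −0.12 over 346 lincRNAs, −0.15 over 365 antisense genes, −0.25 over 55 sense intronic genes and −0.30 over 416 TEC genes, GENCODE's class of provisional loci without experimental proof. The share of genes below 0 was 48.7% of the protein-coding genes, 58.4% of the lincRNAs, 64.4% of the antisense genes, 80.0% of the sense intronic genes and 78.4% of the TEC genes. These are descriptions of gene types and were not tested.

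Because TEC and sense intronic genes stood lowest, their summed share of reads was compared with the RNAs, after the data had been seen. The share was 0.250%, 0.280%, 0.259%, 0.244% and 0.265% in control mice 1 to 5 and 0.203%, 0.273%, 0.197%, 0.235% and 0.217% in ketogenic mice 1 to 5. Its means were 0.260 ± 0.0138% and 0.225 ± 0.0307% (two-sided exact permutation test, p = 0.0556). Without ketogenic mouse 2 the ketogenic mean was 0.213 ± 0.0171% (n = 4). No p-value is given for that mean, because leaving out the only ketogenic mouse at the control level fixes the separation of the diets. Ketogenic mouse 2 was at the control level and the other 4 were below every control mouse, and the same 4 mice were below every control mouse for Malat1, Neat1 and Gas5.

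**Figure D4:**
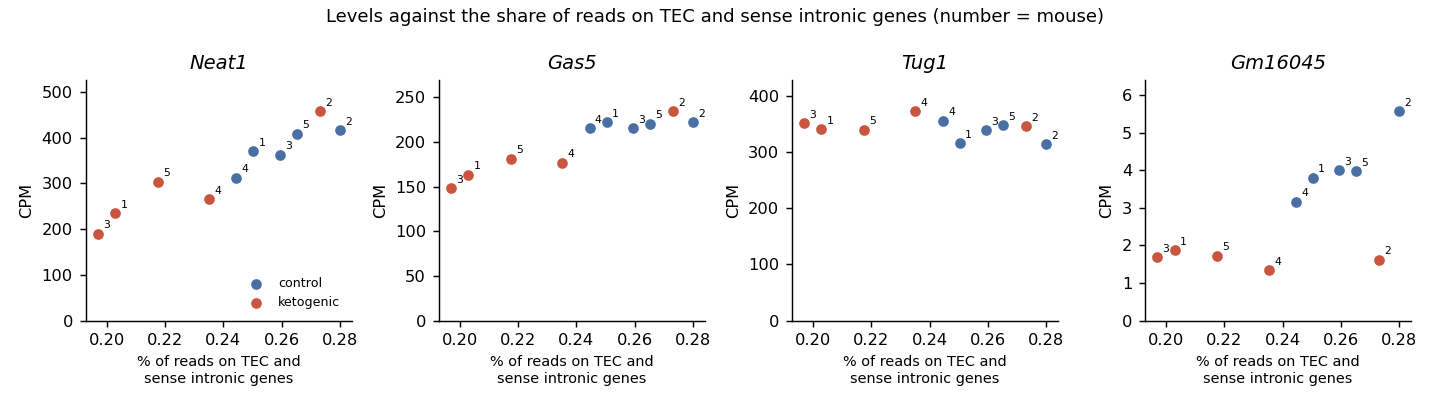
CPM of Neat1, Gas5, Tug1 and Gm16045 (vertical axes start at 0) against the percentage of reads on TEC and sense intronic genes in each mouse, control in blue and ketogenic in red, with the mouse number. Neat1 and Gas5 are higher where the share is higher and ketogenic mouse 2 lies near the controls, and Tug1 shows no slope. For Gm16045 every ketogenic mouse, mouse 2 included, lies below the controls, which is what the gene was chosen for.

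With the mean of each diet removed, this share was correlated over the 10 mice with each of the 8 RNAs on the log2 CPM scale, and 4 of the 8 pairs had an adjusted p under 0.05 (permutation test, adjusted over 8 pairs). For Neat1, Pearson's r was 0.915 (permutation p = 0.00041, adjusted p = 0.0018) and Spearman's rho 0.83 (permutation p = 0.00458). For Gas5, r was 0.889 (permutation p = 0.00045, adjusted p = 0.0018) and rho 0.721 (permutation p = 0.0229). For Malat1, r was 0.858 (permutation p = 0.00207, adjusted p = 0.00552) and rho 0.782 (permutation p = 0.0102). For Kcnq1ot1, r was 0.736 (permutation p = 0.0125, adjusted p = 0.0251) and rho 0.794 (permutation p = 0.00861). These 4 RNAs were high in the mice where provisional and intronic loci took more reads.

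Without the 2 mice whose share was farthest from the median, r was 0.706 for Neat1, 0.593 for Gas5, 0.573 for Malat1 and 0.671 for Kcnq1ot1. The r of Meg3 was 0.602 (permutation, adjusted p = 0.0993), and those of Gm16045, H19 and Tug1 were 0.137, −0.297 and −0.0714 (permutation, adjusted p = 0.796, 0.557 and 0.849). All points share the same libraries and depth, and the share is a share of the same reads. With the log2 share as a covariate in edgeR's test, the log2 fold change between the diets was −0.01 for Malat1, 0.07 for Neat1, −0.06 for Gas5, −0.11 for Kcnq1ot1 and 0.06 for Meg3. That of Gm16045 was −1.25, but this gene was chosen because the diets did not overlap, so its value is no test of a link with the share. What sets the share, unspliced RNA, DNA or another source, was not tested.

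The RNAs also went together in 2 sets. Over the 28 pairs of the 8 RNAs, with the mean of each diet removed, 2 pairs had an adjusted p under 0.05 and 6 an unadjusted one. Neat1 and Gas5 had an r of 0.958 (permutation p = 0.0001, adjusted p = 0.0028) and a rho of 0.879 (permutation p = 0.00198), and r without the 2 outermost mice was 0.774. H19 and Tug1 had an r of 0.914 (permutation p = 0.00041, adjusted p = 0.00574) and a rho of 0.952 (permutation p = 0.00013), and r without the 2 outermost mice was 0.834. Malat1 had an r of 0.774 with Gas5 and of 0.749 with Neat1 (permutation, adjusted p = 0.0729 and 0.0823), and those ranks were less alike, with a rho of 0.333 and 0.491.

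Gm16045 had negative values with the second set, an r of −0.772 with Tug1 (permutation p = 0.00604, adjusted p = 0.0564) and of −0.65 with H19 (permutation p = 0.0361, adjusted p = 0.168), neither of which passed. Without the 2 outermost mice these were −0.564 and −0.271. Control mouse 2, the highest for Gm16045, was the lowest control mouse for both Tug1 and H19, and control mouse 4, the lowest for Gm16045, was the highest control mouse for both.

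**Figure D5:**
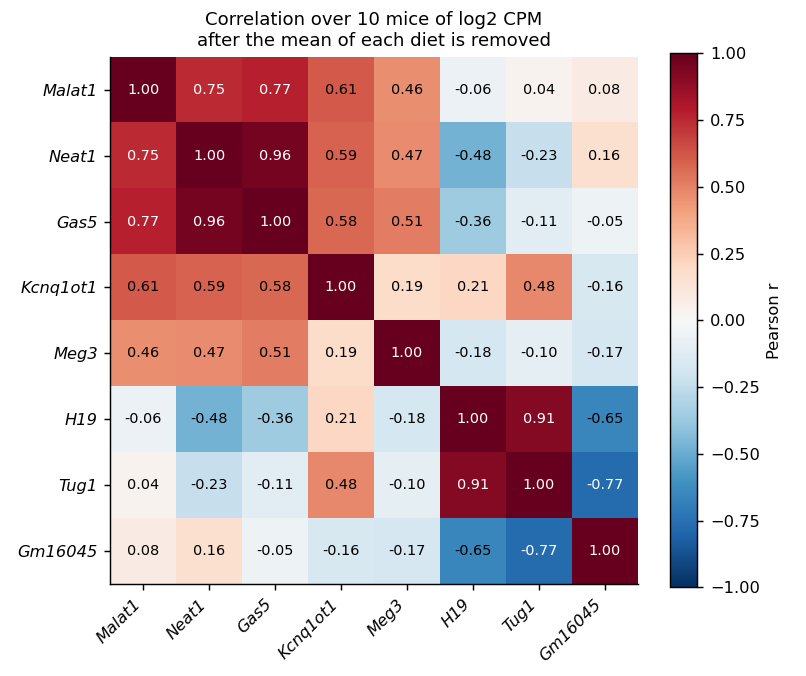
Pearson's r between the 8 RNAs over the 10 mice, on log2 CPM with the mean of each diet removed (colour scale from −1 to 1, value in each square). Malat1, Neat1 and Gas5 form a block of positive values up to 0.96, H19 and Tug1 stand at 0.91, and Gm16045 is negative with H19 and Tug1.

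The genes most like each RNA over the 10 mice, by Pearson's r of log2 CPM with the diet means removed among 12378 genes with a mean count of 50 or more, were as follows. For Gm16045 they were Dip2c (0.942) and Pbxip1 (0.899), and Gcc1 (0.965) was so for Kcnq1ot1. For Malat1 they were 9130017K11Rik (0.93) and Nsd3 (0.928), and for Neat1 they were Lgals4 (0.979) and Rpl10 (0.978). Each value is the highest of 12378 and carries no test. For Gas5 they were Polg2 (0.989) and Gm26532 (0.984), for Tug1 Zfp141 (0.982) and Asrgl1 (0.945), for H19 Elf1 (0.971) and Galns (0.965), and for Meg3 Miip (0.942) and Sntb2 (0.931). Rpl10, which encodes a ribosomal protein, had a log2 fold change of −0.55 (edgeR adjusted p = 0.0753), and none of these most similar genes passed the diet test.

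Several of these RNAs are also made by other cells of the heart, so marker lists of 8 genes each were scored in every mouse as the mean z-score of log2 CPM. The cardiomyocyte score was higher on the ketogenic diet by 1.22 (two-sided exact permutation p = 0.0317, adjusted over 7 lists p = 0.194), with all 8 markers above 0 and sums of 497 to 621 CPM on the control and 579 to 847 CPM on the ketogenic diet. Ttn and Pln had the smallest p, with log2 fold changes of 1.03 and 0.25 (edgeR adjusted p = 0.0605 and 0.0721). The lymphocyte score differed by −0.725 (exact permutation p = 0.0873), with sums of 274 to 405 and 223 to 271 CPM, and 5 of its 8 markers below 0. Of these Cd79a of B cells alone passed, with a log2 fold change of −0.46 (edgeR adjusted p = 0.0221), while the T and NK cell markers Cd3e, Cd3g and Nkg7 had log2 fold changes of 0.11, 0.22 and 0.08 (edgeR adjusted p = 0.814, 0.698 and 0.904). The erythroid and platelet score differed by −0.715 (exact permutation p = 0.0635), with sums of 664 to 900.2 and 454 to 745 CPM. The scores of endothelial, fibroblast, mural cell and macrophage markers differed by −0.624, 0.395, −0.327 and −0.314 (exact permutation p = 0.286, 0.111, 0.405 and 0.563). Reads of Pecam1 ran from 6770 to 7020, of Cdh5 from 7356 to 7571 and of the mural marker Rgs5 from 7457 to 7691. These spreads were narrower than that of the library totals. The endothelial score was highest in control mouse 1 (1.05), the smallest library, and lowest in ketogenic mouse 5 (−1.60), the largest. Endothelial and mural scores therefore cannot be read as amounts of cells, and whether depth sets them was not tested. No list passed after adjustment, and none of the markers was at 0 reads in any mouse.

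None of 56 correlations between an RNA and a marker score, with the diet means removed, passed an adjusted p of 0.05, and 4 had an unadjusted permutation p under 0.05. The highest was that of H19 with the cardiomyocyte score, an r of 0.738 (permutation p = 0.0182, adjusted p = 0.591), followed by Tug1 with the same score at 0.668 (permutation p = 0.0381, adjusted p = 0.591). When the cardiomyocyte score entered edgeR's test as a covariate, the log2 fold change was −0.24 for H19 and −0.02 for Tug1, below 0 in both, and −1.06 for Gm16045. The r of Neat1 with the erythroid and platelet score was −0.641, and that of Meg3 with the macrophage score was 0.628 and 0.196 without the 2 outermost mice (permutation, adjusted p = 0.591 for both). How far such cells contribute to the RNAs was not tested.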

How the data were processed

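RNA of CD31+ cardiac cells from 5 control and 5 ketogenic mice, 1 library per mouse, was examined. The authors deposited raw counts of reads per gene, and also RPKM values, that is, the counts scaled by the authors to gene length and to library size. The submitters' processing notes name bcl2fastq 2.17.1.14, STAR 2.3, HTSeq 0.6.0 and mm10. The annotation release, the strand setting and any removal of duplicate reads are not given in the sources used here. Symbols, positions and exons came from GENCODE M21 on GRCm38, where 46488 of 46983 identifiers were found without regard to version and 37902 with it.

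Counts were normalised by TMM, kept by filterByExpr and tested by the quasi-likelihood F-test of edgeR 4.0.16 in R 4.3.3, with Benjamini-Hochberg adjustment over 15949 genes. SE was taken as the log2 fold change over the root of F. DESeq2 1.42.0 and limma 3.58.1 (log2 of RPKM plus 1 or 0.1) were alternatives, besides other scalings, filters, covariates, start-position corrections, the replicate number as a block and each mouse left out. Log2 CPM used a prior count of 2. Scores were compared by two-sided exact permutation over 252 regroupings (smallest p = 0.00794), and correlations by 100000 permutations (Python 3.11.15, scipy 1.17.1). The permutations for correlations shuffled all mice without regard to diet after the diet means were removed, so their p-values are approximate and may be too small. The procedures were tested on simulated data. The RNAs, gene lists and tests were chosen with earlier results of these data known. Named genes are the 8 RNAs, the 4 genes with the smallest p in each list, overlapping and nearest tested genes, the 2 genes most like each RNA, and 2 markers of a list, of which a few are not reported here. Nono, Sfpq, Cd3e, Cd3g and Nkg7, outside this rule, and all correlations among the 8 RNAs or with the share of TEC and sense intronic reads, were chosen after their values were seen. P-values measure the spread between these mice, and precision at 16 to 68 reads is limited by counting error.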

Additional observations from a re-analysis of the deposited data

Results flagged for a closer look

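Of 32 groups of 5 mice examined (the 8 RNAs, the marker scores and the share of TEC and sense intronic reads on each diet), 1 held a mouse far from the other 4. The macrophage score of ketogenic mouse 4 was 0.849, and its gap to the nearest mouse took 0.8 of the range of the group, above Dixon's critical value of 0.71. About 1 group in 20 is expected to pass by chance, or 1.6 of 32. No such mouse was found for any of the 8 RNAs on either diet. Meg3 had 9.27 CPM in this mouse, the second highest value on the ketogenic diet after 10.2 CPM in mouse 2.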

How the results depend on the processing

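Gm16045 was lower on the ketogenic diet under every alternative tried, with log2 fold changes of −1.49 to −0.60. The last came from limma on log2 RPKM + 1, which compresses low values, and the cardiomyocyte covariate gave −1.06. All of these refit the counts by which the gene was chosen, so the kept direction is no test of its difference. Of the other 7 RNAs, 0 were called under every alternative except without ketogenic mouse 2, which gave 3, where 3.05% of all genes were called (range with each mouse left out 0 to 3). Fold changes turned direction for Neat1 (0.0716), Meg3 (0.055) and H19 (−0.0346) with the share of TEC and sense intronic reads as a covariate, for H19 (−0.24) and Tug1 (−0.0167) with the cardiomyocyte covariate, and for H19 with the fibroblast covariate (−0.091) and without control mouse 2 (−0.0064, with up to 0.139 without another mouse). The cause was not tested.

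The 213 genes changed by diet became 795 with DESeq2 (446 higher), 22, 41, 33, 122 and 60 with the cardiomyocyte, fibroblast, lymphocyte, erythroid and platelet, and share covariates (the last 30 higher and 30 lower, the one before 51 and 71), and 86 to 492 with a mouse left out, the highest without ketogenic mouse 2 (218 higher and 274 lower) and the lowest without control mouse 2. Sums of CPM gave −0.40 for lymphocyte (exact permutation p = 0.00794) and −0.452 for erythroid and platelet markers (exact permutation p = 0.0317). With a mouse left out, score differences ran from 0.985 to 1.49 for cardiomyocyte, 0.243 to 0.486 for fibroblast, −1.01 to −0.555 for lymphocyte, −0.901 to −0.617 for erythroid and platelet, and −0.566 to 0.0582 for macrophage markers (the last without control mouse 1). The cardiomyocyte score had an exact permutation p of 0.0556 in the 6 leave-outs of control mice 1 and 2 and ketogenic mice 2 to 5. The lymphocyte, erythroid and platelet, macrophage and share covariates and the correction with merged exon lengths were chosen after seeing the data.

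The numbers 1 to 5 are shared by the diets, no label says that a number marks a common litter or batch, and correlations between same-numbered mice ran from −0.134 to 0.0936. With the replicate number as a block, 113 genes were called (63 higher and 50 lower), and 0 of the 7 RNAs.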
